A study of Mus musculus with 2 samples.

Results

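The 43 genes described here build the autophagosome, regulate it, or make up the lysosome that receives it. They were taken by symbol from a fixed list, and all 43 were found among the 45706 gene IDs of the count files. 21 are autophagosome factors, 10 are regulators and 12 are lysosomal genes. Of these, 41 were measured, a term used for genes that averaged 1 CPM (a count scaled to a library of 1000000 counts) or more and had 20 or more counts over both libraries. The RNA came from GFP-high intestinal stem cells, sorted from 4-month-old mice that carried the Lgr5-EGFP-IRES-creERT2 allele, in which the Lgr5 locus of crypt-base stem cells drives the reporter. 1 library came from fasted mice and 1 from mice with free access to standard chow. The allele was shared by both groups. The labels do not state how long the fast lasted or how many mice went into a library. The comparison asks whether fasting alters the messages of the autophagy and lysosome pathway in these cells.

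Autophagy encloses cytoplasm in a double membrane that later fuses with lysosomes, where acid hydrolases degrade the cargo. A kinase complex around ULK1 starts the process, a lipid kinase complex with Beclin 1 marks the membrane, and a ubiquitin-like conjugation system attaches ATG8 proteins (LC3 and GABARAP) to it. Nutrient withdrawal is a classical trigger, acting first through protein phosphorylation. The transcription factors TFEB, TFE3 and MITF can raise autophagy and lysosome genes during starvation, and in mouse muscle FOXO3 induces Map1lc3b, Gabarapl1 and Bnip3.

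The fasted library held 5020056 counts over 17067 genes and the fed library 6985316 counts over 17970 genes. Counts were divided by size factors of 0.842 for the fasted and 1.19 for the fed library, and are called scaled counts below. Each ratio is fasted over fed, on the log2 scale where so named, with an exact 95% interval that covers counting error only. With 1 library per group there was no replicate check and no test, so every value describes these 2 libraries. In sorted bulk cells, fewer cells of a type and less RNA per cell cannot be told apart. All 18 crypt-base stem cell markers on the list were measured in both libraries, Lgr5 with 1709 counts in the fasted and 3381 in the fed library. The macrophage markers Adgre1, Csf1r and C1qb had no count in either library, where 3 counts would equal 0.598 CPM in the fasted and 0.429 CPM in the fed library. Of the 10 macrophage and other immune markers on the list, Cd68 and Itgam were measured. The highest level among the 10 was 5.18 CPM in the fasted and 8.88 CPM in the fed library.

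The autophagy and lysosome genes differed little between the fasted and the fed library. None of the 41 measured members was at least 2-fold higher or lower with an interval that excluded a ratio of 1, against 2.51% of all 12026 measured genes called higher and 1.91% called lower by the same rule. For 39 of the 41 the whole interval lay within 2-fold, and for 33 it lay within 1.5-fold. At 1.5-fold the background was 5.11% higher and 5.05% lower, and Psap was the 1 member called, as higher. The members' log2 ratios ran from -0.55 to 0.67 around a median of 0.04, beside a median of -0.02 over all measured genes. 23 of the 41 were positive, beside 47.9% of all measured genes.

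The contrast between the roles was modest, with the lysosomal genes highest. Lysosomal genes had a median log2 ratio of 0.14 with 10 of 12 positive, regulators had 0.04 with 6 of 9 positive, and autophagosome factors had -0.10 with 7 of 20 positive. The interval excluded 1 on the higher side for 7 lysosomal genes, 0 regulators and 2 autophagosome factors, and on the lower side for 1, 0 and 4. Over all measured genes those shares were 16.7% and 19.2%. Outside the members, 9 of 40 lysosomal enzymes, 8 of 25 membrane genes and 2 of 17 pump subunits had intervals above 1. On the lower side the numbers for these lists were 1, 4 and 3. The numbers of the members moved with the scaling. With upper-quartile size factors the higher side had 8 lysosomal genes, 0 regulators and 3 autophagosome factors, and the lower side 1, 0 and 2. With total counts the numbers were 6, 0 and 2 on the higher side and 1, 1 and 4 on the lower side. With scaling to the sum of counts per kilobase they were 4, 0 and 1, and 1, 3 and 8. That last scaling shifted the ratios of all genes by -0.10 (log2). The shares over all measured genes were not computed under these other scalings. The shares depend on depth. With the measured genes cut into 5 equal classes by mean level, the most abundant class, which holds 6 of the 12 lysosomal members, had 28.5% and 30.4%. A measure that allows for the level is the place of a gene within its own class, where by construction 10% of genes lie above the 90th percentile and 10% below the 10th. Of the lysosomal genes 4 of 12 lay above and 1 below, of the regulators 0 of 9 lay outside, and of the autophagosome factors 1 of 20 lay above and 1 below.

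**Figure D1:**
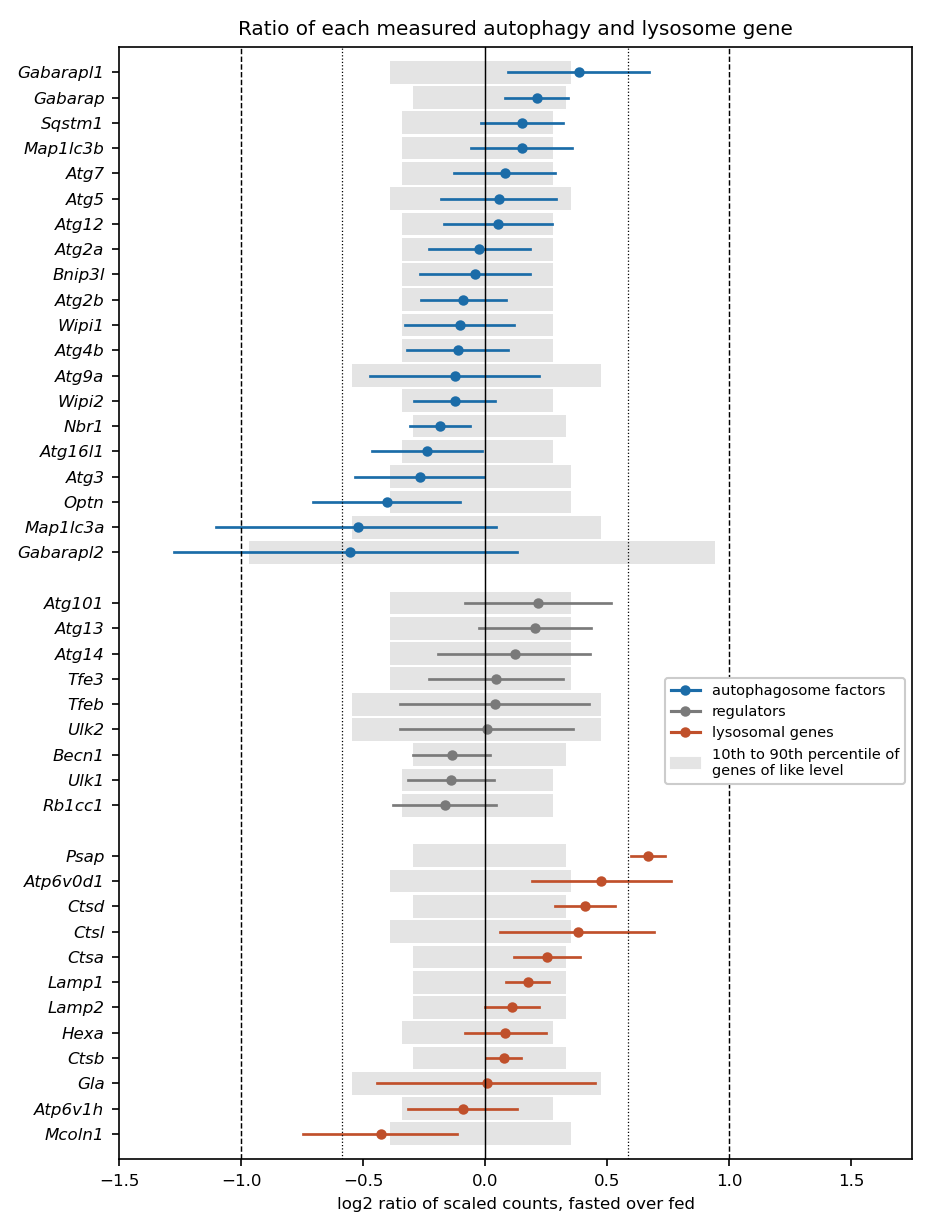
Log2 ratio of scaled counts, fasted over fed, for the 41 measured members by role (points), with 95% counting intervals (lines). Grey bars span the 10th to 90th percentile of the measured genes in the same class of mean level, and dotted and dashed lines mark 1.5-fold and 2-fold. Every point lies within 2-fold, and Psap at 0.67 is the 1 point beyond 1.5-fold.

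Among the regulators, the initiation complex showed no clear difference between the libraries. Ulk1, the kinase that starts autophagosome formation, had 525 scaled counts in the fasted and 578 in the fed library (442 and 687 counts), a log2 ratio of -0.14 (-0.31 to 0.04). Its relative Ulk2 had 138 in the fasted and 137 in the fed library, a log2 ratio of 0.01 (-0.35 to 0.36). The adaptor genes Atg13 and Atg101 leaned up, at 0.21 (-0.03 to 0.44) and 0.22 (-0.08 to 0.52), and the scaffold gene Rb1cc1 leaned down, at -0.16 (-0.38 to 0.05). All 5 intervals included a ratio of 1. The lipid kinase complex was represented by Becn1, its core subunit, at -0.14 (-0.29 to 0.02), and by Atg14, which targets the complex to autophagy, at 0.12 (-0.19 to 0.43). Becn1 shares 43.9% of its exon bases with the opposite-strand gene Cntd1, which had 18 fasted and 33 fed counts, so reads from that stretch cannot be told apart.

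The measured transcription factor genes of the pathway also showed no clear difference. Tfeb, whose product activates lysosomal and autophagy genes, had 118 scaled counts in the fasted and 114 in the fed library (99 and 136 counts), a log2 ratio of 0.04 (-0.35 to 0.42). Tfe3, a relative with overlapping targets, had 229 in the fasted and 222 in the fed library (193 and 264 counts), at 0.05 (-0.23 to 0.32). The third relative, Mitf, had 3 counts in each library, below the limit for a measured gene, and no ratio is given. Tfec, the remaining family member, had no count in either library. TFEB and TFE3 are controlled largely by phosphorylation and entry into the nucleus, which messenger RNA counts do not record.

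Genes that supply membrane to the growing autophagosome were all slightly below a ratio of 1, each with an interval that included it. The lipid transfer protein genes Atg2a and Atg2b had log2 ratios of -0.02 (-0.23 to 0.18) and -0.09 (-0.26 to 0.08). The scramblase gene Atg9a had -0.12 (-0.47 to 0.22), and the phosphoinositide-binding genes Wipi1 and Wipi2 had -0.10 (-0.33 to 0.12) and -0.13 (-0.29 to 0.04). These 5 genes have long messages, with a median exon length of 7693 bases. After a correction for the trend of ratio with exon length their median was -0.0016, against -0.10 before it. Atg9a shares 32.6% of its exon bases with other annotated genes.

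In the conjugation machinery, 3 ratios were positive and 3 negative. Atg5 and Atg12, whose products are joined to each other and activate ATG8 attachment, had log2 ratios of 0.06 (-0.18 to 0.29) and 0.05 (-0.17 to 0.27), and the activating enzyme gene Atg7 had 0.08 (-0.13 to 0.28). The protease gene Atg4b had -0.11 (-0.32 to 0.09). Atg16l1, which directs the complex to the membrane, had 315 scaled counts in the fasted and 371 in the fed library (265 and 441 counts), at -0.24 (-0.46 to -0.01). Atg3, the conjugating enzyme, had 226 in the fasted and 272 in the fed library (190 and 323 counts), at -0.27 (-0.53 to -0.0047). Both of these intervals excluded 1 narrowly, and both ratios lay inside the central 80% of genes of their level. Length correction gave -0.13 (-0.36 to 0.09) for Atg16l1, an interval that included 1, and -0.30 (-0.56 to -0.03) for Atg3.

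The ATG8 genes themselves split by member. Gabarap was by far the most abundant, with 573 scaled counts per kilobase of exon in the fasted and 495 in the fed library, and its log2 ratio was 0.21 (0.08 to 0.34) from 889 and 1084 counts. Length correction brought it to 0.07 (-0.06 to 0.20), an interval that included 1. Gabarapl1 came next, at 115 per kilobase in the fasted and 88.2 in the fed library. It had the highest ratio of the family, with 232 scaled counts in the fasted and 178 in the fed library (195 and 211 counts), a log2 ratio of 0.38 (0.10 to 0.67), and shares 28.3% of its exon bases with another annotated gene. Map1lc3b, the LC3 gene most used as an autophagy marker, had 409 scaled counts in the fasted and 369 in the fed library (344 and 438 counts), at 0.15 (-0.06 to 0.36).

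The other two ATG8 genes had ratios below 1 and few counts. Map1lc3a had 47.5 scaled counts in the fasted and 68.2 in the fed library (40 and 81 counts), a log2 ratio of -0.52 (-1.10 to 0.04). Gabarapl2 had 32.1 in the fasted and 47.1 in the fed library (27 and 56 counts), the lowest ratio of all members at -0.55 (-1.27 to 0.13). Both intervals included 1 and reached past 2-fold, so a difference of that size was not excluded by the counts. Gabarapl2 has 3 pseudogenes at 96.6% to 99.4% identity over at least 200 bases and Map1lc3b has 4 at 96.1% to 99.6%. Those of Gabarapl2 held 0 counts in both libraries, and those of Map1lc3b 1 fasted and 5 fed counts. Since the handling of reads with several matches is not given, the levels of these 2 genes are uncertain.

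Cargo receptors hold a cargo with one end and ATG8 with the other. Sqstm1, the receptor for ubiquitin-tagged proteins, had 616 scaled counts in the fasted and 555 in the fed library (518 and 659 counts), at 0.15 (-0.02 to 0.32). Nbr1, which works beside it, had 1028 in the fasted and 1169 in the fed library (865 and 1389 counts), at -0.19 (-0.31 to -0.06). Length correction brought Nbr1 to -0.10 (-0.22 to 0.03), an interval that included 1. Optn, a receptor for bacteria and damaged mitochondria, had 169 in the fasted and 223 in the fed library (142 and 265 counts), at -0.40 (-0.71 to -0.10), below the 10th percentile of genes of its level.

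The mitochondrial receptor genes did not differ detectably at this depth. Bnip3l had 329 scaled counts in the fasted and 338 in the fed library, at -0.04 (-0.27 to 0.18). It has 1 copy at 99.2% identity elsewhere in the genome, with 1 fasted and 2 fed counts, so its level is uncertain in the same way. Its relative Bnip3 was barely present, with 5 counts in the fasted and 4 in the fed library, too few for a ratio to be read, and 4 near-identical copies elsewhere in the genome.

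**Figure D2:**
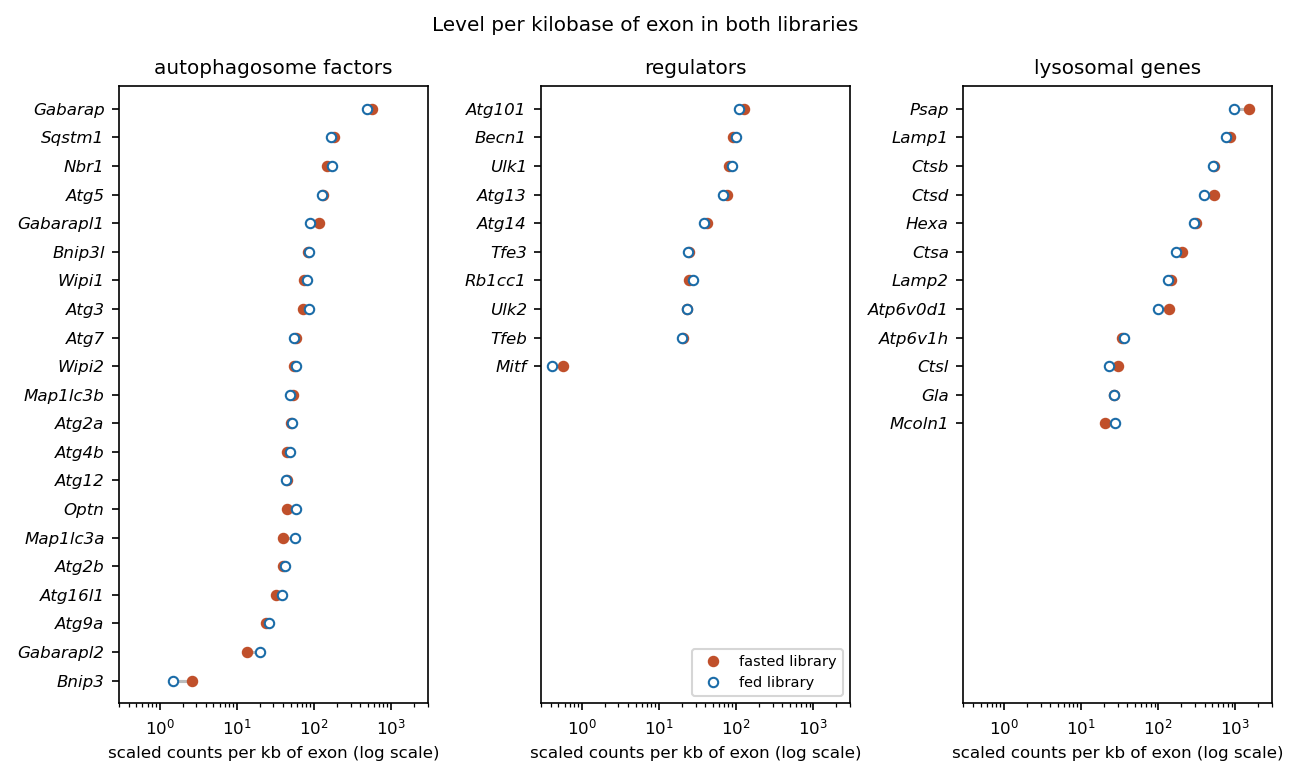
Level of all 43 members as scaled counts per kilobase of exon on a log axis, by role, with filled points for the fasted and open points for the fed library. Levels span from under 1 for Mitf to 1532 for Psap in the fasted library, and the points of each gene nearly coincide except for Psap and a few genes of low count.

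Lysosomal genes included the most abundant members and the member with the largest ratio. Psap encodes prosaposin, the precursor of the saposins that help lysosomal enzymes degrade sphingolipids (chromosome 10, 60277627 to 60302597, GRCm38). It had 4203 scaled counts in the fasted and 2649 in the fed library (3537 and 3148 counts), a 1.59-fold difference and a log2 ratio of 0.67 (0.60 to 0.74). Of all measured genes 5.75% had a ratio at least as high. It was also the most abundant member per kilobase in both libraries, with 1532 in the fasted and 965 in the fed library. The 1.5-fold call is close to its threshold, since correction for exon length gave 0.56 and scaling to the sum of counts per kilobase gave 0.57, both just under 1.5-fold.

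The cathepsins are the main proteases of the lysosome, and all 4 on the list had intervals above a ratio of 1, beside 16.7% of all measured genes and 28.5% of the most abundant class. With libraries scaled to total counts this held for 3, without Ctsb, and with scaling to the sum of counts per kilobase for 2, Ctsa and Ctsd. The general shares were not recomputed under these scalings. Ctsd, an aspartic protease, had 1243 scaled counts in the fasted and 936 in the fed library (1046 and 1112 counts), a log2 ratio of 0.41 (0.29 to 0.53). Ctsl, a cysteine protease, had 194 in the fasted and 149 in the fed library (163 and 177 counts), at 0.38 (0.06 to 0.69). Ctsa, a carboxypeptidase that also protects other hydrolases, had 970 in the fasted and 813 in the fed library (816 and 966 counts), at 0.25 (0.12 to 0.39).

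The most abundant cathepsin moved least. Ctsb, a cysteine protease, had 3239 scaled counts in the fasted and 3074 in the fed library (2726 and 3653 counts), at 0.08 (0.0034 to 0.15), and this ratio was -0.02 when libraries were scaled to the sum of counts per kilobase. Ctsd and Ctsl lay above the 90th percentile of genes of their level, and Ctsa and Ctsb inside the central range. Ctsd and Ctsl share 34.4% and 32.9% of their exon bases with other annotated genes, which are not among the counted genes.

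The glycosidases of the list showed no clear difference at this depth. Hexa, a subunit of the enzyme that degrades the ganglioside GM2, had 617 scaled counts in the fasted and 582 in the fed library, at 0.08 (-0.08 to 0.25). Gla, alpha-galactosidase A, had 87.9 in the fasted and 87.5 in the fed library, at 0.01 (-0.44 to 0.45). The 7 enzymes and activators had a median of 0.25, with values between 0.01 and 0.67. All 7 were positive, beside 47.9% of all measured genes. With total counts 6 were positive, after length correction 5, and with scaling to the sum of counts per kilobase 4, since Gla, Hexa and Ctsb lay close to a ratio of 1. The share of 47.9% was not recomputed under these settings.

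Lysosomal membrane genes differed in direction. Lamp1 and Lamp2, the abundant coat proteins of the inner lysosomal face, had 2270 and 1390 scaled counts in the fasted library, against 2010 and 1289 in the fed library. Their log2 ratios were 0.17 (0.09 to 0.26) and 0.11 (-0.0021 to 0.22). That of Lamp1 was 0.07 (-0.02 to 0.15) after length correction and 0.08 (-0.0078 to 0.17) with scaling to the sum of counts per kilobase, where its interval included 1. Mcoln1, the calcium channel that activates TFEB through calcineurin, had 154 in the fasted and 208 in the fed library (130 and 247 counts), at -0.43 (-0.75 to -0.12), the lowest ratio on the lysosomal side and below the 10th percentile of genes of its level. It has 1 copy at 95% identity elsewhere in the genome that is not among the counted genes.

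Subunits of the proton pump that acidifies lysosomes also split. Atp6v0d1, of the membrane sector, had 246 scaled counts in the fasted and 177 in the fed library (207 and 210 counts), at 0.48 (0.19 to 0.76). Atp6v1h, of the catalytic sector, had 334 in the fasted and 356 in the fed library, at -0.09 (-0.32 to 0.13). The 17 other measured pump subunits had a median of -0.02, with 8 positive.

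Summed over the 12 lysosomal genes, the log2 ratio was 0.28 (0.24 to 0.31), from 12579 fasted and 14653 fed counts. Psap supplied much of it, since the sum of the other 11 gave 0.15 (0.11 to 0.19) and their median was 0.11, with 9 positive. The summed autophagosome factors had -0.03 (-0.07 to 0.02) and the summed regulators -0.03 (-0.11 to 0.05).

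The libraries also differed by message length, which touches these ratios. In the shortest of 10 length bins the median log2 ratio of measured genes was 0.15 and in the longest it was -0.14. Lysosomal members had a median exon length of 3990 bases, autophagosome factors 5086 and regulators 5977. After correction for the length trend the medians were 0.17 for lysosomal genes, -0.0055 for autophagosome factors and 0.08 for regulators. The correction also shifted all measured genes, by a median of 0.02. The part of length in the ratios of each role was not tested.

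**Figure D3:**
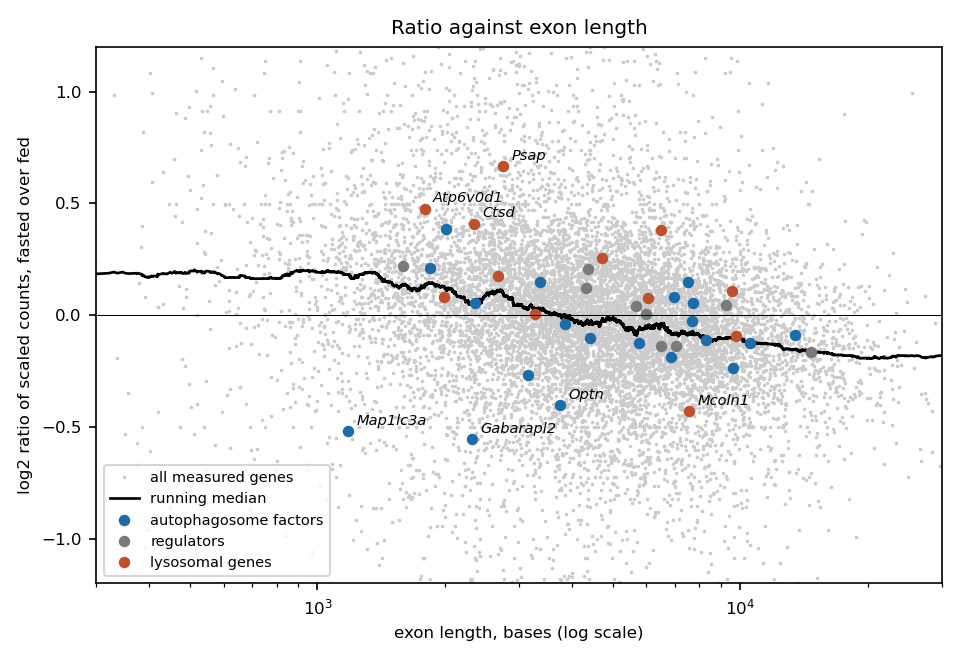
Log2 ratio, fasted over fed, against exon length on a log axis for all measured genes (grey), their running median (line) and the members by role (coloured). The running median falls with length. Psap, Atp6v0d1 and Ctsd lie above it, and Optn, Mcoln1, Map1lc3a and Gabarapl2 below.

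TFEB and its relatives bind an E-box of the letters CACGTG, often preceded by T. RefSeq windows on GRCm38.p6, reaching from 250 bases before to 50 bases after an annotated start, were on hand for 35 members and were searched on both strands. CACGTG, which reads the same on both strands, was found for 7 of 10 lysosomal genes, 4 of 17 autophagosome factors and 1 of 8 regulators. Beside this stood 12.1% of 9306 measured genes and 8.09% of all 27025 genes with a window. Lysosomal genes outside the members had CACGTG less often, in 7 of 31 enzymes, 3 of 22 membrane proteins and 3 of 16 pump subunits. Of the genes of lysosomal nutrient sensing 5 of 12 had it. The longer form TCACGTG, which contains the first, was found for 6 of 10 lysosomal, 2 of 17 autophagosome and 1 of 8 regulator genes, beside 7.24% of measured genes. The longer palindrome with GT before CACGTG and AC after it was found for 0 of the 35, beside 0.849% of measured genes. The stretches around matches are shown for 6 lysosomal genes whose ratios point both ways, in the direction of transcription, with CACGTG in capitals.
Ctsd, chr7:142388018-142388077, minus strand: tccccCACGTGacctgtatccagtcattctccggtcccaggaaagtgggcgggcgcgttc
Atp6v0d1, chr8:105566035-105566094, minus strand: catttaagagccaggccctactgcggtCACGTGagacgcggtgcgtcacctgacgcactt
Ctsa, chr2:164833734-164833793, plus strand: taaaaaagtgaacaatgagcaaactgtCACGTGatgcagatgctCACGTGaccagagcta
Lamp1, chr8:13159073-13159132, plus strand: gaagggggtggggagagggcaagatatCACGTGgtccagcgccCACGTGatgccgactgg
Gla, chrX:134601191-134601255, minus strand: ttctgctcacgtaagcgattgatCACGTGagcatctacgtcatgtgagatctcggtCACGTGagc
Mcoln1, chr8:3500421-3500480, plus strand: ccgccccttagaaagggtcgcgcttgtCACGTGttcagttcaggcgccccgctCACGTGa

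Measured members with CACGTG had a median log2 ratio of 0.12, with 9 of 11 positive, and those without had 0.02, with 12 of 22 positive. The 7 lysosomal genes with a match had a median of 0.25 and a range from -0.43 to 0.48, and the 3 without had a median of 0.11 and a range from 0.08 to 0.67. Among autophagosome factors the median was 0.06 for the 3 with a match and -0.10 for the 13 without. Among regulators the 1 gene with a match, Atg14, had 0.12 and the 6 without had a median of 0.04. The medians were thus higher with CACGTG in each role, on few genes and with overlapping ranges, and the difference was not tested. Lamp1 has 4 matches in its window and a log2 ratio of 0.17, Mcoln1 has 2 and a ratio of -0.43, and Gla has 2 and a ratio of 0.01. Psap, with the highest ratio, has none in either of its windows. Over measured genes the median was 0.0098 for the 1123 with CACGTG and -0.02 for the 8183 without. The longer form TCACGTG did not give higher medians in each role. The lysosomal median was 0.21 for the 6 genes with it and 0.24 for the 4 without. That of autophagosome factors was -0.09 for 2 with it and -0.10 for 14 without, and regulators divided as for CACGTG. Over measured genes the median was -0.0150 with TCACGTG and -0.0129 without. A match is a description of the letters and does not show binding.

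The wider pathway gave the same picture of small ratios. Of 153 further genes listed for the pathway, 142 were measured, with a median log2 ratio of 0.03 and 83 positive. At 2-fold 2 were higher and 0 lower, beside 2.51% and 1.91% of all measured genes, so neither number exceeded the general share. Scarb2, the lysosomal membrane receptor that carries beta-glucocerebrosidase to lysosomes, had 974 counts in the fasted and 612 in the fed library, at 1.17 (1.02 to 1.32). Ctsf, a further cysteine cathepsin, had 38 in the fasted and 13 in the fed library, at 2.05 (1.10 to 3.08).

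Among 40 other lysosomal enzymes 27 were positive, with a median of 0.10, and at 2-fold Ctsf was the 1 called. After Ctsf the highest was the acid nuclease gene Dnase2a at 0.60 (-0.22 to 1.43). The lowest were the phospholipase gene Pla2g15, with 29 fasted and 77 fed counts at -0.91 (-1.58 to -0.28), and the sulfatase gene Ids at -0.28 (-0.60 to 0.04). Of 25 other lysosomal membrane genes 15 were positive, with a median of 0.09. The sialic acid exporter gene Slc17a5 had 0.45 (0.16 to 0.74), and the two-pore channel gene Tpcn1 was lowest at -0.58 (-0.87 to -0.30).

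Other proton pump subunits were led by Atp6v1e1 at 0.33 (0.13 to 0.53) and Atp6v0e at 0.27 (0.02 to 0.51). Lowest were Atp6v0b at -0.51 (-0.79 to -0.23) and Tcirg1 at -0.42 (-0.59 to -0.26). The 12 measured genes of lysosomal nutrient sensing, which recruit the kinase mTORC1, had a median of 0.13 with 8 positive. Lamtor4 and Fnip2 were highest at 0.41 (0.13 to 0.69) and 0.40 (0.06 to 0.74), and Lamtor3 and Lamtor5 lowest at -0.24 (-0.65 to 0.17) and -0.13 (-0.53 to 0.26).

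Of 17 other autophagosome genes 11 were positive, with a median of 0.02. Atg4a, a protease for ATG8 proteins, was highest at 0.94 (-0.13 to 2.05) from 19 fasted and 14 fed counts, followed by Atg10 at 0.37 (-0.27 to 1.00). Atg16l2, a relative of Atg16l1, was lowest, with 63 fasted and 148 fed counts at -0.73 (-1.18 to -0.30), followed by Tecpr1, a gene of autophagosome maturation, at -0.49 (-0.76 to -0.21).

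Other regulators had a median of -0.0069 over 18 genes with 8 positive. Ppara, the fatty acid receptor gene, had the highest ratio at 0.75 (0.44 to 1.07), above the 1.5-fold threshold, and the energy-sensing kinase gene Prkaa2 followed at 0.22 (-0.03 to 0.46). Zkscan3, which represses autophagy genes in human cells, was lowest, with 451 fasted and 861 fed counts at -0.44 (-0.60 to -0.27), followed by Nrbf2 at -0.17 (-0.81 to 0.46). Of 13 other cargo and organelle receptors 6 were positive, with a median of -0.04. The mitophagy kinase gene Pink1 had 0.45 (0.28 to 0.62) and Tax1bp1 0.27 (0.19 to 0.36), while the ferritin receptor gene Ncoa4 had -0.61 (-1.45 to 0.19) and Wdfy3 -0.27 (-0.45 to -0.10).

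**Figure D4:**
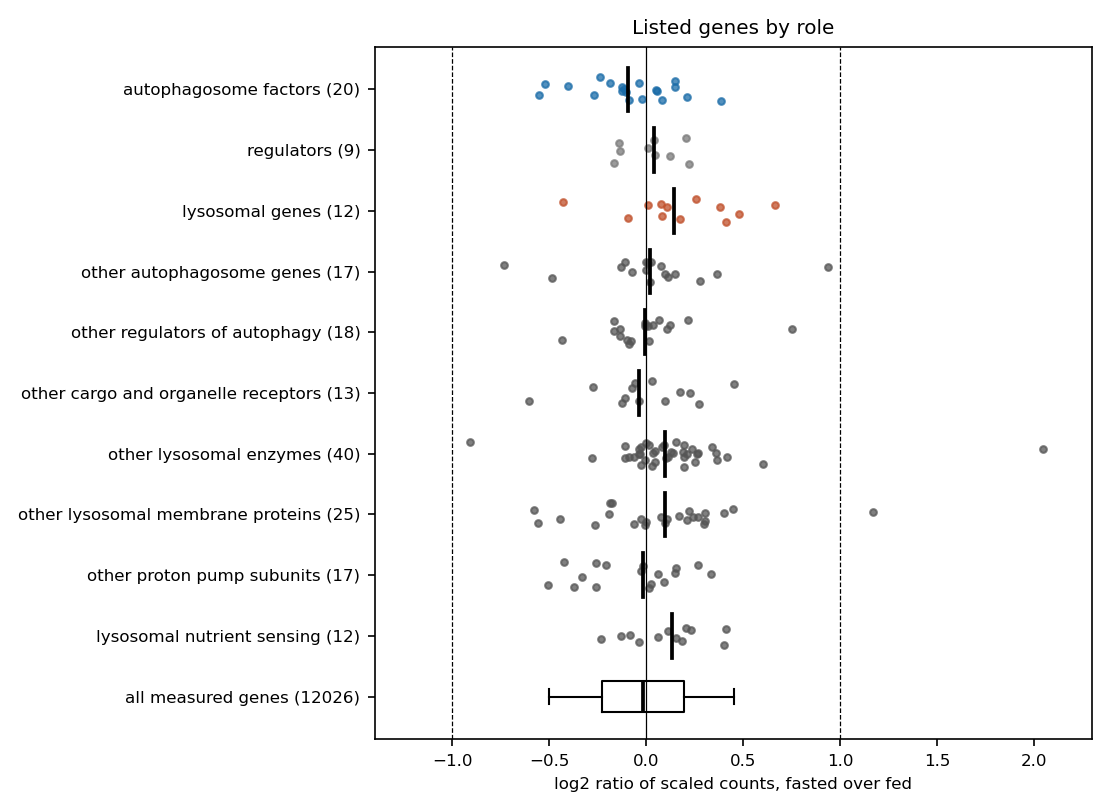
Log2 ratio, fasted over fed, of each measured gene (points) in the 3 roles of the members and in the 7 further lists of the pathway, with black bars at the medians and the number of genes in brackets. The box shows the quartiles of all 12026 measured genes, its whiskers the 10th and 90th percentiles, and the list medians lie between -0.10 and 0.14.

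Markers of other cell types differed between the same libraries. Absorptive enterocyte markers summed to 5014 CPM in the fasted and 3308 CPM in the fed library, with 13 of 20 at least 2-fold higher, beside 2.51% of all measured genes. Goblet cell markers summed to 1272 CPM in the fasted and 651 CPM in the fed library, with 4 of 10 higher. Paneth cell markers, from granule-rich cells, summed to 1011 CPM in the fasted and 1166 CPM in the fed library, with a median log2 ratio of -0.28 and 8 of 11 negative. At 2-fold 2 were higher and 0 lower, beside 2.51% and 1.91% of all measured genes. At 1.5-fold 2 were higher and 3 lower, beside 5.11% and 5.05%. No enterocyte, goblet or Paneth marker was at 0 in either library. The part of these cell types in the lysosomal ratios was not tested.

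Stem cell markers summed to 16486 CPM in the fasted and 24308 CPM in the fed library, with 0 of 18 past 2-fold and 16 negative. The interval lay below a ratio of 1 for 15 of the 18 and above it for 1, beside 19.2% and 16.7% of all measured genes. Proliferation markers summed to 2076 CPM in the fasted and 2886 CPM in the fed library, with 0 of 8 past 2-fold. At 1.5-fold 2 of the 8 were lower, beside 5.05% of all measured genes. Their intervals lay below a ratio of 1 for 5 and above it for 1. Enteroendocrine markers summed to 32.7 CPM in the fasted and 32.8 CPM in the fed library, and tuft cell markers to 7.77 CPM in the fasted and 11.5 CPM in the fed library, with Gfi1b, Il25 and Gnat3 at 0 in the fasted and Il25 at 0 in the fed library. Macrophage and other immune markers, from cells rich in lysosomes, summed to 6.77 CPM in the fasted and 13.5 CPM in the fed library, with 7 of 10 at 0 in the fasted and 5 of 10 at 0 in the fed library. Besides Adgre1, Csf1r and C1qb, these were Cd79a in both libraries, Ptprc, C1qa and Lyz2 in the fasted and Cd3e in the fed library. The log2 ratios of the 2 measured immune markers, Cd68 and Itgam, ran from -1.56 to -0.76, with both intervals below a ratio of 1. At 2-fold 1 of them was lower, beside 1.91% of all measured genes. Stromal, endothelial and red blood cell markers summed to 7 counts in the fasted and 14 counts in the fed library. Of these, Col1a1, Col1a2, Col3a1, Cdh5 and Hba-a1 were at 0 in the fasted library, and Col3a1, Hbb-bs and Hba-a1 in the fed library.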

How the data were processed

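RNA sequencing libraries were made with the Illumina TruSeq RNA Sample Prep Kit from 1 ug of total RNA of sorted cells, per the labels' protocols. The authors deposited whole-number counts of reads per Ensembl gene for each library, not normalised. The submitters' processing notes name FastQC, STAR, HTSeq and DESeq, and the builds GRCm38 and mm10. The sources used here do not give the annotation, the strand setting or the handling of reads with several matches. A deposited table holds a normalised signal equal to the count over 1 factor per library (0.842 fasted, 1.19 fed). Multiplied by these it gave whole reads for 100% of values, within a tolerance of 0.0051 for the signal.

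Of 45706 IDs, 45143 matched a symbol of GENCODE M21 (GRCm38), which gave exon lengths and coordinates. Size factors were medians of ratios. Intervals were exact Clopper-Pearson intervals of the fasted share of a gene's counts (scipy 1.17.1). The counting precision is that of 27 to 3653 counts per measured member and library. Near-identical copies were sought with blastn 2.17.0 at 95% identity over 200 bases, and 17 members share exon bases with another annotated gene. The procedure was checked on simulated counts. Members were all accounted for, with counts of both libraries for those at 1.25-fold or more with an interval excluding 1 and for every ATG8, transcription factor and cathepsin gene. From each further list the 2 highest and 2 lowest genes and any past 2-fold were named, except 1 gene that is not reported here. Members and lists were chosen with earlier results of these data known, so no list is independent support. Alternatives were TMM and upper-quartile factors (edgeR 4.0.16), total counts, the deposited signal, no filter, 5 CPM, other thresholds, summed counts, and a running median over exon length in windows of 501 genes. Scaling to counts per kilobase and lists without Psap were added after seeing the data.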

Additional observations from a re-analysis of the deposited data

How the results depend on the processing

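With 1 library per group, no replicate could be left out. No paired analysis was possible because each group has 1 library. The number of members at 2-fold was 0 in both directions under every setting run. At 1.5-fold, 1 member was higher and 0 lower. Correction for exon length and scaling to the sum of counts per kilobase each gave 0 higher, as Psap went just under the threshold, and 1 lower, Map1lc3a, at -0.70 and -0.62. The other settings run left both numbers as they were. Scaling to the sum of counts per kilobase shifted the ratios of all measured genes by -0.10 (log2), and so also their median. Medians became -0.06 for all members and for regulators, 0.05 for lysosomal genes and -0.19 for autophagosome factors. Their differences from each other and from the median of all measured genes were unchanged. The scaling turned the sign of 9 of 41 members and left 7 of 12 lysosomal genes positive. Length correction turned the sign of 5 members and total counts that of 2. With length correction the interval lay above a ratio of 1 for 7 lysosomal genes, 1 regulator and 1 autophagosome factor. Among the autophagosome factors Gabarap and Gabarapl1 were lost there and Map1lc3b was gained. The interval lay below 1 for 1, 0 and 3, where Atg16l1 and Nbr1 were lost and Map1lc3a was gained. Summed counts gave -0.03 for regulators, against a median of 0.04. Depth limits Mitf and Bnip3, which had too few counts for a ratio to be read, and Map1lc3a and Gabarapl2, whose intervals reach past 2-fold.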
